A study of Mus musculus with 18 samples.

Results

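The 10 genes described here are those around which the choice between the CD4 and the CD8 T-cell lineage turns in the thymus. They were *Cd4*, *Cd8a*, *Cd8b1*, *Zbtb7b*, *Runx3*, *Runx1*, *Gata3*, *Tox*, *Patz1* and *Cbfb*, found in the count files by their Entrez Gene ID, 10 of 27179 genes counted. All 10 passed the filter on low counts that 12798 genes passed. Thymocytes bearing CD69 were sorted into a fraction with little and one with much surface MHC I, called here MHC I low and MHC I high, and both came from each of 9 mice (3 WT, 3 *Hoil* ΔCd4, 3 *Sharpin* cpdm), which gave 18 RNA samples in 6 groups. *Hoil* ΔCd4 mice carry a floxed *Rbck1*, the gene of HOIL-1, which a Cre recombinase under *Cd4* control deletes in T-lineage cells from the stage at which that driver is active, and they are on a C57BL/6 background. *Sharpin* cpdm mice lack SHARPIN in every tissue from the germ line, and the line came on C57BL/Ka and was crossed to C57BL/6 for few generations, so genotype and background cannot be told apart there. The sources used here do not state whether the WT animals carried Cre, nor the ages of the animals sequenced. HOIL-1 and SHARPIN are subunits of the linear ubiquitin chain assembly complex, which acts in NF-κB signalling, and the study asked how its loss alters thymocytes just after positive selection. Each sample is the RNA of a sorted population. The sort left out dead cells, cells with CD25 or CD44, and B, natural killer, myeloid and γδ T cells by their surface markers, but it did not separate cells by CD4 or CD8, so each sample mixed cells of both lineages, and fewer cells of a type and less RNA per cell cannot be told apart in the RNA. The study states that the make-up of these fractions by CD4 and CD8 was comparable between the genotypes.

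Thymocytes that carry both coreceptors and whose receptor recognises self MHC are positively selected and become either CD4 cells, which recognise MHC II, or CD8 cells, which recognise MHC I. ThPOK, encoded by *Zbtb7b*, imposes the CD4 fate, and RUNX3, which works as a complex with the shared subunit encoded by *Cbfb*, imposes the CD8 fate and silences *Cd4*. GATA3 and TOX act upstream in CD4 lineage specification, RUNX1 acts in the uncommitted cells, and MAZR, encoded by *Patz1*, takes part in the control of *Cd8* and of *Zbtb7b*. Selected thymocytes gain CD69 first and then surface MHC I, so that cells of the MHC I high fraction are at the later stage.

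The coreceptor genes lie on chromosome 6 of GRCm38 (mm10), *Cd8b1* from 71322788 to 71337492, *Cd8a* from 71373427 to 71379171 at a distance of 35.9 kb, and *Cd4* from 124864693 to 124888247. *Zbtb7b* lies on chromosome 3 (89377644–89393673), *Runx3* and *Tox* on chromosome 4 (135120645–135177990 and 6686353–6991557) and *Runx1* on chromosome 16 (92601466–92826074). *Gata3* lies on chromosome 2 (9857078–9887953), *Patz1* on chromosome 11 (3289131–3309083) and *Cbfb* on chromosome 8 (105170674–105217989).

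*Runx3* and *Runx1* were the pair of related genes that moved in opposite directions between the fractions, and their first promoters share a run of letters, shown here for that reason. The capitals mark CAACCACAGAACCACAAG, the longest run that these promoters have in common, which holds the letters ACCACA of the site that RUNX proteins are known to bind, in tandem. The sequences are those of RefSeq on GRCm38.p6.
*Runx3*, chr4:135120505-135120529, plus strand, capitals from base −136 relative to the start site: ccctCAACCACAGAACCACAAGgcc
*Runx1*, chr16:92826028-92826052, minus strand, capitals from base 27 after the start site: taaaCAACCACAGAACCACAAGttg
The 250 bases before the first start site of *Runx3* (chr4:135120395-135120644, plus strand) are given with each ACCACA in capitals.
*Runx3* first promoter: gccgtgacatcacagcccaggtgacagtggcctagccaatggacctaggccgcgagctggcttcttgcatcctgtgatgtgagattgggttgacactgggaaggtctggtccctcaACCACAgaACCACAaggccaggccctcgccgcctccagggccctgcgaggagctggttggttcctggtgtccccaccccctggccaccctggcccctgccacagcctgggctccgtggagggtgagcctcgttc
This run stood in 4 of 32851 RefSeq promoters (0.0122%; 250 bases before to 50 after each start site, either strand), those of *Gm16225*, *Runx1*, *Runx2* and *Runx3*. A promoter sequence was at hand for 7 of the 10 genes, 11 promoters in all, and not for *Cd4*, *Cd8b1* and *Tox*. ACCACA or its reverse complement TGTGGT was found in 3 of the 11, both of those printed and the second promoter of *Zbtb7b* (base −89), against 16.8% of all promoters. AGATAA or TTATCT, letters of the site that GATA factors are known to bind, was in 0 of the 11 and in 11.2% of all. The run was taken from the printed promoters, so its presence and that of ACCACA in them was given by that choice. These matches describe letters and not binding.

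Between 10577966 and 16266128 reads were counted per sample, and the least abundant of the 10 genes, *Runx3* had 542 to 2032 counts. The genotype labels were checked first. *Rbck1* was at 217 to 229 CPM (counts relative to the sample's total count after TMM scaling) in WT MHC I low and at 0.271 to 0.779 CPM in *Hoil* ΔCd4 MHC I low samples. In the MHC I high fraction it was at 263 to 268 CPM in WT and at 3.72, 8.94 and 4.51 CPM in the *Hoil* ΔCd4 samples. *Sharpin* was at 66.4 to 74.7 CPM in *Sharpin* cpdm against 85.9 to 97.3 CPM in WT in MHC I low, and at 69.4 to 77.9 against 86.5 to 91.9 CPM in MHC I high samples. The cpdm allele is a frameshift from which transcript can still be made, so this level checks the label in part only. All 10 of the T-cell markers listed were expressed, with summed levels of 6055 to 6978 CPM, and B-cell, red-cell and thymic epithelial markers summed to at most 6.82, 1.66 and 12.7 CPM. Myeloid and dendritic-cell markers summed to at most 15.5 CPM. In WT samples they were at 10.6 to 11.1 CPM in MHC I low and 11.9 to 13.2 CPM in MHC I high. The pattern of *Xist* and the chromosome Y gene *Ddx3y* was female in the 3 WT mice and in 1 mouse of each mutant genotype, and male in the other 4 mice. Sex is thus largely confounded with genotype. Mouse 2 of the *Hoil* ΔCd4 group was of male pattern, yet its MHC I high sample, highest of its group in *Rbck1*, had an *Xist* level of 63.6 CPM, against 0.593 CPM in its MHC I low sample.

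In WT MHC I low samples *Cd4*, the coreceptor of the CD4 lineage, was the most abundant of the 10 genes per length at 269 ± 5.79 CPM per kilobase (SD, n = 3). *Tox* followed at 174 ± 13.6, *Zbtb7b* at 107 ± 14.1 and *Cbfb* at 97.5 ± 7 CPM per kilobase. *Gata3* was at 84.4 ± 4.46, *Cd8a* at 73.9 ± 3.74, *Cd8b1* at 70.1 ± 6.82, *Patz1* at 45.9 ± 1.37, *Runx1* at 24.6 ± 1.88 and *Runx3* at 12.4 ± 1.47 CPM per kilobase. In this order, neighbours whose samples overlapped were *Zbtb7b* with *Cbfb* and *Cd8a* with *Cd8b1*. In WT MHC I high samples the 3 coreceptor genes stood together at the top, *Cd8a* at 249 ± 14, *Cd8b1* at 237 ± 28.8 and *Cd4* at 232 ± 11.8 CPM per kilobase, with overlapping samples. Further down, *Cbfb* overlapped with *Zbtb7b* and *Runx3* with *Patz1*. *Runx1* was the lowest there at 19.8 ± 0.821 and *Runx3* had passed it at 31.2 ± 0.654 CPM per kilobase. The order of the coreceptor genes in MHC I high samples was *Cd8a*, *Cd8b1*, *Cd4* in *Sharpin* cpdm as in WT, and *Cd4*, *Cd8b1*, *Cd8a* in *Hoil* ΔCd4 mice (266 ± 23.3, 248 ± 47.0 and 244 ± 29.0 CPM per kilobase), again with overlapping samples. Exon lengths are those of the deposited files.

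**Figure D1:**
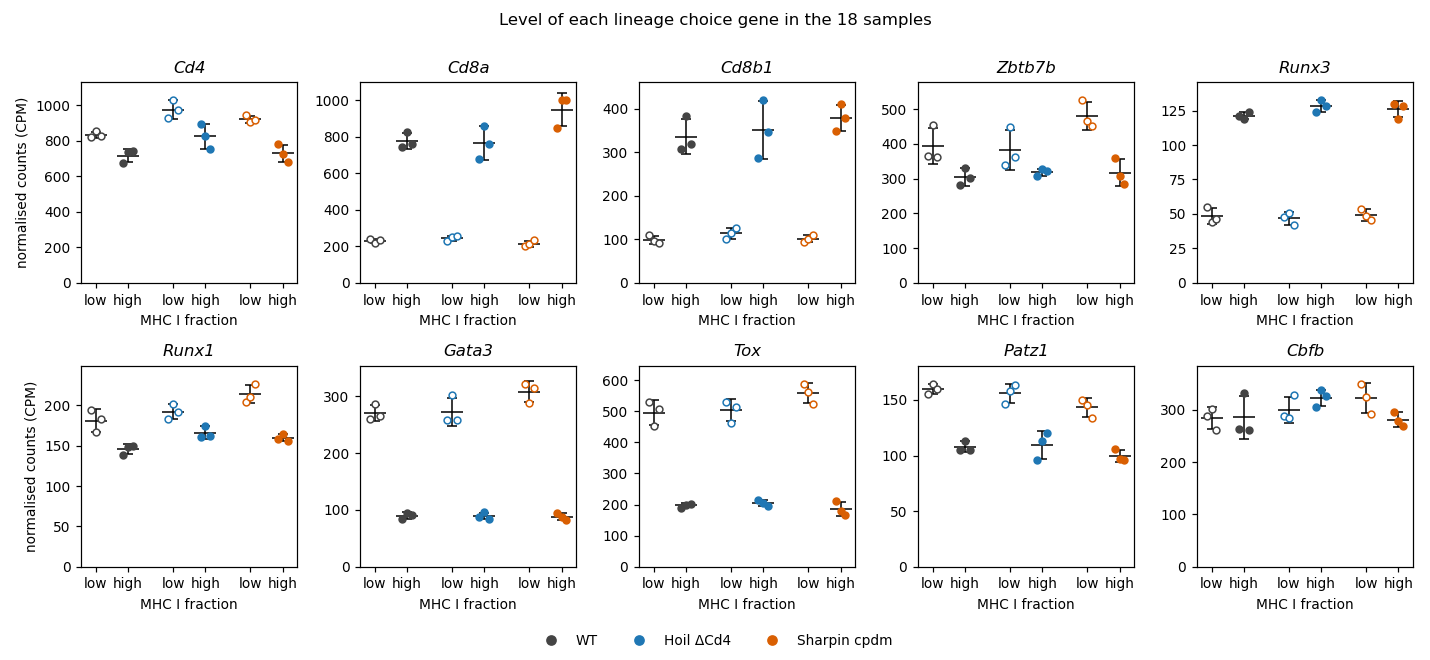
Level of each gene in CPM (vertical axes, from 0) in every sample, by MHC I fraction and genotype (open points, MHC I low; filled points, MHC I high); the horizontal bar and whiskers give the mean and SD of 3 mice. *Cd8a*, *Cd8b1* and *Runx3* are higher in every MHC I high sample than in every MHC I low sample, *Gata3* and *Tox* are lower in every one, and the genotypes lie close together beside these differences.

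The first comparison was of MHC I high with MHC I low cells within each genotype. Between the fractions *Cd8a*, *Cd8b1* and *Runx3* rose, *Gata3* and *Tox* fell steeply, *Patz1*, *Zbtb7b*, *Runx1* and *Cd4* fell less, and *Cbfb* passed the test in *Sharpin* cpdm mice alone. The limma model called 9 of the 10 genes in WT (3 higher, 6 lower), 9 in *Hoil* ΔCd4 (3 higher, 6 lower) and 10 in *Sharpin* cpdm mice (3 higher, 7 lower), at a Benjamini–Hochberg adjusted p under 0.05. Of all 12798 genes tested, 54.4% were called in WT (27.5% higher, 26.8% lower), 45.3% in *Hoil* ΔCd4 (23.5% higher, 21.7% lower) and 54.6% in *Sharpin* cpdm mice (27.2% higher, 27.4% lower). The samples of the fractions did not overlap for 9 of the 10 genes in each genotype, all but *Cbfb*, and for 52.7%, 48.9% and 55.8% of all genes in WT, *Hoil* ΔCd4 and *Sharpin* cpdm mice. The size of the changes stood further from that of all genes than their number did. The 10 genes were chosen with earlier results of these data known, so both contrasts are descriptions and may in part follow from that choice. The median absolute log2 fold change of the 10 genes was 0.95 in WT mice, 0.90 in those with *Hoil* ΔCd4 and 0.97 in those with *Sharpin* cpdm, against 0.24, 0.25 and 0.26 over all genes tested. Of 9 markers of mature single-positive thymocytes 8 were higher and 1 lower in the MHC I high fraction of each genotype, with WT sums of 3068 to 3250 against 1201 to 1265 CPM. The markers of double-positive thymocytes differed between the genotypes in this respect. Of 10, 1 was higher and 6 lower in the MHC I high fraction of WT mice (median log2 fold change −0.38). In *Hoil* ΔCd4 mice 3 were higher and 1 lower (0.06), and in *Sharpin* cpdm mice 4 were higher and 2 lower (0.03). The part of both marker lists in the changes of the lineage genes was not tested.

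*Cd8a* and *Cd8b1* encode the chains of the CD8 coreceptor. *Cd8a* was at 240.0, 218 and 236 CPM in the WT MHC I low samples of mice 1 to 3 and at 745, 828 and 761 CPM in their MHC I high samples. In *Hoil* ΔCd4 mice it went from 230.5, 249 and 257 to 675, 857 and 762 CPM, and in *Sharpin* cpdm mice from 200.03, 213 and 232 to 846, 998 and 999.9 CPM. No sample of either fraction reached the range of the other. The fold change was 3.30 in WT (limma log2 fold change 1.72 ± 0.0581 SE, the standard error, adjusted p = 1.80e-19), 3.14 in *Hoil* ΔCd4 (log2 1.65) and 4.48 in *Sharpin* cpdm mice (log2 2.16). *Cd8b1* moved with it, from 109.8, 97 and 90.9 to 307, 383 and 319 CPM in WT mice, a fold change of 3.28 (limma log2 fold change 1.71 ± 0.0992 SE, adjusted p = 8.10e-10). It rose 3.11-fold in *Hoil* ΔCd4 and 3.81-fold in *Sharpin* cpdm mice, and its fractions did not overlap in any genotype.

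*Cd4* remained among the most abundant of the 10 and fell little. Its WT levels were 819, 854 and 827 CPM in MHC I low and 675, 735 and 740.1 CPM in MHC I high samples. In *Hoil* ΔCd4 mice they were 927, 1029.7 and 971 CPM, then 896, 826 and 752 CPM, and in *Sharpin* cpdm mice 944, 906 and 917 CPM, then 781, 725 and 683 CPM. The fractions did not overlap within a genotype, though *Hoil* ΔCd4 mouse 1 in its MHC I high sample stood above the 3 WT MHC I low samples. *Cd4* changed by −13.2% in WT (limma log2 fold change −0.20 ± 0.0472 SE, adjusted p = 5.28e-04), by −16.1% in *Hoil* ΔCd4 (−0.25) and by −20.9% in *Sharpin* cpdm mice (−0.34).

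*Runx3* was the transcription factor of the list that rose. Its WT levels were 54.8, 43.9 and 46.3 CPM in MHC I low and 121, 119 and 124 CPM in MHC I high samples. The *Hoil* ΔCd4 samples held 47.5, 50.8 and 41.9 CPM, then 124, 133 and 128 CPM, and the *Sharpin* cpdm samples 53.9, 48.6 and 45.3 CPM, then 130.1, 119 and 128 CPM. The 9 MHC I high samples all stood above the 9 MHC I low samples. The fold change was 2.51 in WT (limma log2 fold change 1.33 ± 0.0615 SE, adjusted p = 6.83e-18), 2.78 in *Hoil* ΔCd4 (log2 1.47) and 2.51 in *Sharpin* cpdm mice (log2 1.33).

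*Zbtb7b*, whose product opposes RUNX3, fell in each genotype but stayed well expressed. In WT mice it was at 364, 453 and 362 CPM in MHC I low and 283, 332 and 301 CPM in MHC I high samples. In *Hoil* ΔCd4 mice it was at 339.9, 447 and 361 CPM, then 307, 327 and 322 CPM, and in *Sharpin* cpdm mice at 526, 467 and 450.0 CPM, then 359, 308 and 284 CPM. The fractions did not overlap in any genotype. *Zbtb7b* changed by −22% in WT (limma log2 fold change −0.36 ± 0.0742 SE, adjusted p = 4.22e-04), by −15.2% in *Hoil* ΔCd4 (−0.24, standard error 0.0912, adjusted p = 0.0402) and by −34.7% in *Sharpin* cpdm mice (−0.61, adjusted p = 1.38e-06). The *Hoil* ΔCd4 call was lost in 7 of 20 alternatives, among them without *Hoil* ΔCd4 mouse 2 (adjusted p = 0.227) or 3 (0.0793), without *Sharpin* cpdm mouse 2 (0.0531) and without a block for the mouse (0.116). It was also lost without the MHC I high library of *Hoil* ΔCd4 mouse 2 alone (0.0935).

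*Gata3* and *Tox*, which act before *Zbtb7b* in the CD4 programme, had the largest falls. *Gata3* stood at 260.4, 287 and 266 CPM in the WT samples of the low fraction and 83.3, 94.4 and 91.7 CPM in the WT samples of the high fraction. It changed by −66.6% in WT (limma log2 fold change −1.58 ± 0.0525 SE, adjusted p = 1.42e-21), by −66.9% in *Hoil* ΔCd4 and by −71.3% in *Sharpin* cpdm mice. *Tox* stood at 528, 453 and 506 CPM in the WT samples of the low fraction and 189.9, 199.8 and 202 CPM in the WT samples of the high fraction. It changed by −60.2% in WT (limma log2 fold change −1.33 ± 0.0554 SE, adjusted p = 2.23e-18), by −59.5% in *Hoil* ΔCd4 and by −67.1% in *Sharpin* cpdm mice. For both genes the highest MHC I high sample of any genotype stood below the lowest MHC I low sample. By absolute fold change in WT, *Cd8a*, *Cd8b1*, *Gata3*, *Tox* and *Runx3* each stood above at least 93.1% of the genes tested, and *Cd4* above 43.7%.

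The remaining regulators were *Runx1*, *Patz1* and *Cbfb*. *Runx1* changed by −19.4% in WT, from 167–194 to 139–150.0 CPM (limma log2 fold change −0.31 ± 0.0491 SE, adjusted p = 3.07e-06), by −12.9% in *Hoil* ΔCd4 and by −24.3% in *Sharpin* cpdm mice. The *Hoil* ΔCd4 call of *Runx1* was lost without *Hoil* ΔCd4 mouse 3 (adjusted p = 0.0539). *Patz1* changed by −33% in WT, from 155–164 to 105–113 CPM (limma log2 fold change −0.58 ± 0.0510 SE, adjusted p = 3.56e-11), by −29.2% in *Hoil* ΔCd4 and by −31.5% in *Sharpin* cpdm mice. The partner subunit gene *Cbfb* stood at 262–302 CPM in the WT samples of the low fraction and 262–333 CPM in WT MHC I high samples (log2 fold change −0.05, 95% interval −0.17 to 0.07, adjusted p = 0.504, limma). In *Sharpin* cpdm mice *Cbfb* fell by 13.4% (log2 fold change −0.21, adjusted p = 0.00531), with overlapping fractions. That call was lost without *Sharpin* cpdm mouse 1 (adjusted p = 0.0778) or 2 (0.0990), with edgeR (0.0630) and with DESeq2 (0.0605).

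**Figure D2:**
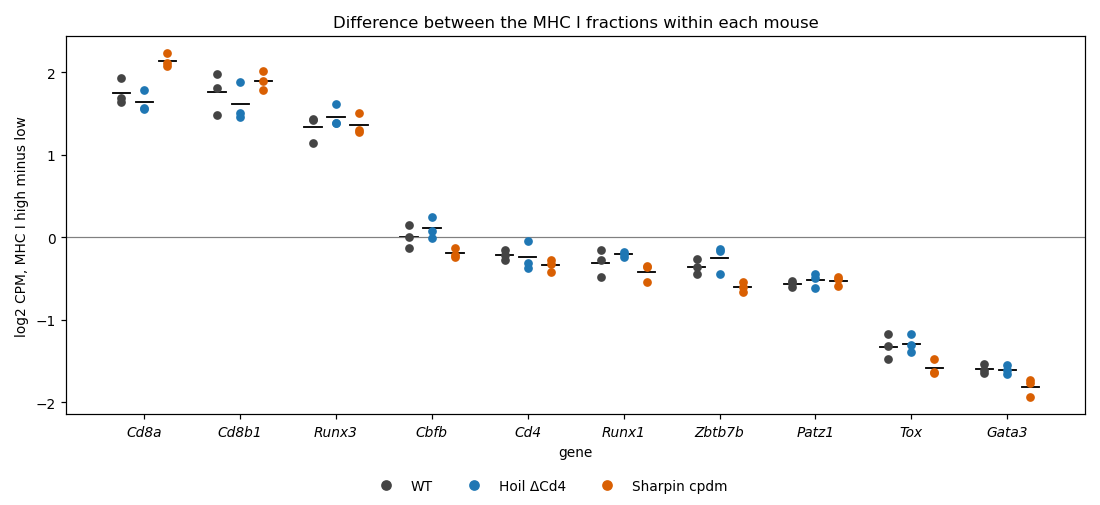
Difference in log2 CPM between the MHC I high and the MHC I low sample of each mouse (vertical axis) for each gene (horizontal axis); points are mice, coloured by genotype, and short bars are genotype means. *Cd8a*, *Cd8b1* and *Runx3* lie above 0 and *Cd4*, *Runx1*, *Zbtb7b*, *Patz1*, *Tox* and *Gata3* below 0 in 9 of 9 mice, and *Cbfb* lies on both sides.

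Within single animals the same directions were seen, which for all genes but *Cbfb* follows from the lack of overlap within each genotype. *Cd8a*, *Cd8b1* and *Runx3* were higher in the MHC I high sample in 9 of 9 mice, and *Cd4*, *Zbtb7b*, *Runx1*, *Gata3*, *Tox* and *Patz1* were lower in 9 of 9, as the plot of changes per mouse shows. *Cbfb* was higher in 4 mice and lower in 5. The rise of *Cd8a* ranged from 2.93-fold to 4.68-fold and that of *Runx3* from 2.21-fold to 3.06-fold over the 9 mice, while *Gata3* in MHC I high samples was at 0.261 to 0.345 of its MHC I low level. The 3 *Sharpin* cpdm mice (4.23-fold to 4.68-fold for *Cd8a*) stood above the other 6 (2.93-fold to 3.80-fold).

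Ratios between genes of a sample, taken per length, set the opposing members side by side. *Cd4* exceeded *Cd8a* by 3.65 ± 0.270 to 1 in WT MHC I low samples (SD, n = 3) and was level with it at 0.932 ± 0.0451 in WT MHC I high samples. The same ratio went from 4.03 ± 0.191 to 1.1 ± 0.206 in *Hoil* ΔCd4 and from 4.35 ± 0.392 to 0.787 ± 0.130 in *Sharpin* cpdm mice. The MHC I high ratios overlapped between *Sharpin* cpdm (0.691 to 0.934) and WT samples (0.898 to 0.984), and those of *Hoil* ΔCd4 samples (0.975 to 1.34) overlapped those of WT as well. In MHC I low samples the ratios of *Sharpin* cpdm mice (3.99 to 4.77) lay above those of WT (3.45 to 3.96) without overlap, while those of *Hoil* ΔCd4 mice (3.82 to 4.19) overlapped both. *Zbtb7b* exceeded *Runx3* by 8.71 ± 1.98 to 1 in WT MHC I low and by 2.65 ± 0.257 to 1 in WT MHC I high samples. Its *Hoil* ΔCd4 means of 8.64 and 2.62 and *Sharpin* cpdm means of 10.3 and 2.66 lay near those of WT, and *Zbtb7b* was above *Runx3* in all 18 samples. *Runx1* changed place with *Runx3*, from 1.98 ± 0.106 to 0.636 ± 0.0283 in WT, from 2.18 to 0.683 in *Hoil* ΔCd4 and from 2.31 to 0.672 in *Sharpin* cpdm mice. Of these, the *Hoil* ΔCd4 MHC I high ratios (0.668 to 0.697) stood above those of WT (0.606 to 0.662) without overlap. The *Cd8a* to *Cd8b1* ratio stayed near 1, with group means of 0.957 to 1.13. In *Sharpin* cpdm mice it was 0.950 to 0.960 in MHC I low and 1.1 to 1.2 in MHC I high samples, and in the other genotypes the fractions overlapped.

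**Figure D3:**
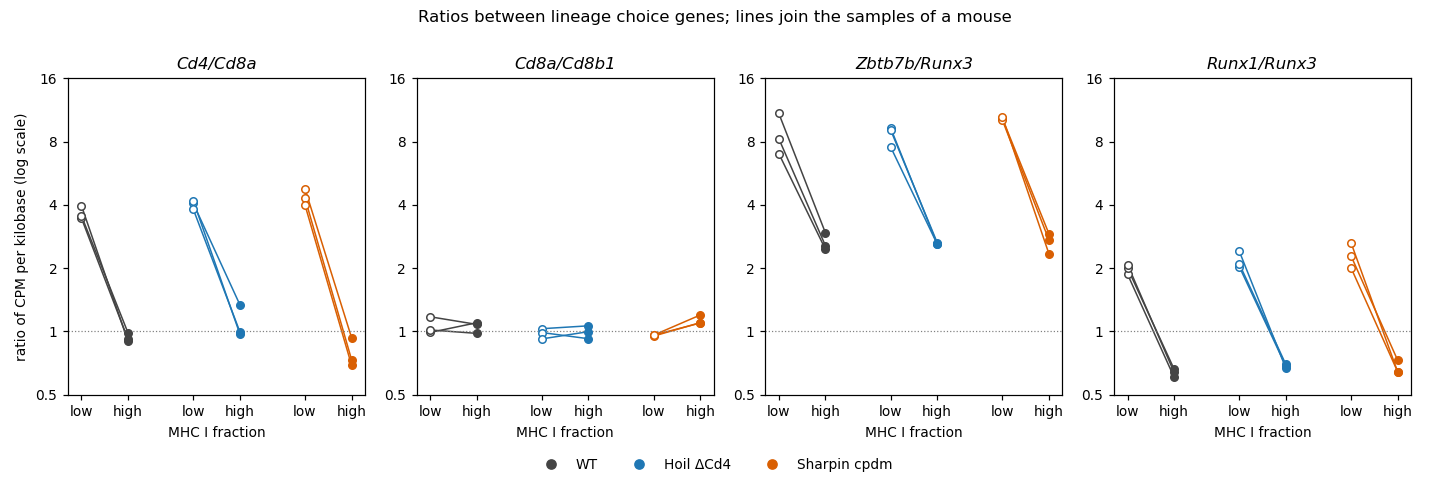
Ratios of CPM per kilobase between pairs of genes (vertical axes, log scale) in the MHC I low (open) and MHC I high (filled) samples; lines join the samples of a mouse and the dotted line marks a ratio of 1. *Cd4*/*Cd8a* falls from 3.45–4.77 to 0.691–1.34, *Zbtb7b*/*Runx3* stays above 1, *Runx1*/*Runx3* crosses 1, and *Cd8a*/*Cd8b1* stays between 0.921 and 1.2.

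Each mutant was then compared with WT within a fraction, which asks whether loss of HOIL-1 or SHARPIN altered the lineage genes. For *Cd8a*, *Cd8b1*, *Runx3*, *Gata3* and *Tox* the differences were small beside those between the fractions. For *Cd4*, *Zbtb7b*, *Runx1* and *Cbfb* some were of like or larger size. *Cd4* differed by 0.22 on the log2 scale in *Hoil* ΔCd4 MHC I low samples, against −0.20 between the WT fractions. *Zbtb7b* differed by 0.31 in *Sharpin* cpdm MHC I low samples, against −0.36. Both mutants were set against the same WT samples. Among MHC I low samples of *Hoil* ΔCd4 mice 0 of the 10 genes were called by limma or by edgeR. DESeq2 called *Cd4*, and 1 gene had an unadjusted p under 0.05 with limma. Over all genes 0.985% were called. *Cd4* was at 927, 1029.7 and 971 CPM against 819, 854 and 827 CPM in WT, without overlap (limma log2 fold change 0.22 ± 0.0629 SE, adjusted p = 0.0867). It was called without *Hoil* ΔCd4 mouse 1 (0.0380). *Cd4* was the 1 gene of the 10 whose groups did not overlap, as for 14.7% of all genes. The 95% intervals of *Zbtb7b* (−0.25 to 0.17), *Runx3* (−0.24 to 0.09), *Gata3* (−0.14 to 0.15) and *Tox* (−0.14 to 0.17) included 0. Summed markers of double-positive thymocytes were at 917 to 965 against 848 to 890 CPM in WT (0 of 10 called), those of mature single-positive thymocytes at 1049 to 1129 against 1201 to 1265 CPM (1 of 9 lower), and those of natural killer and innate-like T cells at 19.5 to 28.6 against 11.3 to 18.3 CPM (0 of 2 tested called), each without overlap. Of 6 regulatory T-cell markers 3 were lower, with overlapping sums (1024 to 1151 against 909 to 1118 CPM). Their part in the levels of the genes described was not tested.

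In *Hoil* ΔCd4 MHC I high cells 1 of the 10 genes, *Cbfb*, was called, where 6.65% of all genes were called (3.84% higher, 2.81% lower). *Cbfb* was at 305, 337 and 326 CPM against 263, 333 and 262 CPM in WT, so that WT mouse 2 stood within the mutant range (limma log2 fold change 0.25 ± 0.0698 SE, adjusted p = 0.0283). The call was lost in 9 of 19 alternatives, among them without *Hoil* ΔCd4 mouse 2 (adjusted p = 0.272) or 3 (0.150), without WT mouse 1 (0.584) or 3 (0.610), with edgeR (0.330) and with DESeq2 (0.323). It was also lost without the *Hoil* ΔCd4 MHC I high library of mouse 2 alone (0.268). *Cd4* was at 752 to 896 CPM against 675 to 740.1 CPM in WT (log2 fold change 0.17, adjusted p = 0.0642) and *Runx1* at 161 to 175 CPM against 139 to 150.0 CPM (0.18, adjusted p = 0.0625), both without overlap. Both were called without WT mouse 2 (0.0419 and 0.0341), and *Cd4* also without *Hoil* ΔCd4 mouse 3 (0.0357), with DESeq2 (0.0475) and with library size as the only scaling (0.0477). DESeq2 thus called *Cd4* and not *Cbfb*. With *Runx3* (124.3 to 132.6 against 118.8 to 123.9 CPM) they were the 3 genes of the 10 without overlap, where 19.6% of all genes had none. *Cd8a* (95% interval −0.13 to 0.15), *Runx3* (−0.08 to 0.22), *Zbtb7b* (−0.11 to 0.27) and *Gata3* (−0.14 to 0.12) had intervals that included 0. In these samples 7 of 10 markers of double-positive thymocytes were higher than in WT, with sums of 777 to 1004 against 669 to 721 CPM, and 3 of 9 markers of mature single-positive thymocytes were lower, with sums of 2696 to 2764 against 3068 to 3250 CPM. Natural killer and innate-like T-cell markers summed to 10.6–12.7 against 5.38–7.03 CPM and thymic epithelial markers to 11.6–12.7 against 8.34–9.54 CPM, and 3 of 6 regulatory T-cell markers were lower (531 to 674 against 666 to 766 CPM summed). Their part in the levels of the lineage genes was not tested.

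In *Sharpin* cpdm MHC I low cells *Zbtb7b* and *Runx1* rose, 2 of the 10 genes, where 12.2% of all genes were called (5.31% higher, 6.92% lower). *Zbtb7b* was at 526, 467 and 450.0 CPM against 364, 453 and 362 CPM in WT, an overlap through WT mouse 2 (limma log2 fold change 0.31 ± 0.0902 SE, adjusted p = 0.0292). This call was lost in 9 of 19 alternatives, those without *Hoil* ΔCd4 mouse 3 (adjusted p = 0.0522), *Sharpin* cpdm mouse 1 (0.0932) or 2 (0.0964), WT mouse 1 (0.179) or 3 (0.181), with edgeR (0.117), DESeq2 (0.0505) or no sample weights (0.0718), and with *Xist* as a covariate (0.0957). *Runx1* was at 205, 211 and 227 CPM against 194, 167 and 182 CPM in WT, without overlap (limma log2 fold change 0.22 ± 0.0597 SE, adjusted p = 0.0149). Its call was lost without *Sharpin* cpdm mouse 3 (0.0731) and without WT mouse 2 (0.0612). *Gata3* at 288 to 322 CPM against 260.4 to 287 CPM (log2 fold change 0.18, adjusted p = 0.0690), *Tox* (0.17, adjusted p = 0.107) and *Cbfb* (0.20, adjusted p = 0.0645) were not called. Without WT mouse 2 *Gata3* (0.0393) and *Cbfb* (0.0156) were called, and *Cbfb* also without *Sharpin* cpdm mouse 3 (0.0399) and with only the groups compared in the model (0.0481). The groups did not overlap for 4 of the 10 genes, *Runx1*, *Gata3*, *Cd4* (906 to 944 against 819 to 854 CPM, higher) and *Patz1* (134 to 150.2 against 155 to 164 CPM, lower), and for 30% of all genes. Beside these values, 5 of 10 T-cell markers were higher and 2 lower in *Sharpin* cpdm MHC I low samples, and the markers of natural killer and innate-like T cells summed to 22.2–37.1 against 11.3–18.3 CPM in WT. Of 6 regulatory T-cell markers 2 were lower, with sums of 585 to 645 against 909 to 1118 CPM. Double-positive markers summed to 788–819 against 848–890 CPM (1 of 10 lower) and mature single-positive markers to 1338–1370 against 1201–1265 CPM (2 of 9 higher). Their part in the differences was not tested.

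In *Sharpin* cpdm MHC I high cells *Cd8a* rose, 1 of the 10 genes, where 8.62% of all genes were called (4.15% higher, 4.47% lower). It was at 846, 998 and 999.9 CPM against 745, 828 and 761 CPM in WT, without overlap (limma log2 fold change 0.32 ± 0.0638 SE, adjusted p = 0.00158). The call was lost without *Sharpin* cpdm mouse 2 (adjusted p = 0.0633), without WT mouse 1 (0.0610) and without WT mouse 3 (0.129). *Cd8b1*, the neighbouring gene, was at 349, 410.3 and 378 CPM against 307, 383 and 319 CPM, with overlap (log2 fold change 0.24, standard error 0.109, adjusted p = 0.207), and was called with only the groups compared in the model (0.0309). *Cd8a* and *Runx1* (156 to 165 against 139 to 150.0 CPM) were the 2 genes of the 10 without overlap, where 22.3% of all genes had none. *Cd4* (95% interval −0.10 to 0.11) and *Runx3* (−0.12 to 0.16) had intervals that included 0. *Tox* (log2 fold change −0.11, adjusted p = 0.296) was called without *Sharpin* cpdm mouse 1 (0.0490). Of the double-positive markers 4 of 10 were higher in these samples (717 to 837 against 669 to 721 CPM summed). Of the 6 regulatory T-cell markers 4 were lower (485 to 553 against 666 to 766 CPM summed), and 1 of 2 natural killer and innate-like T-cell markers tested was higher (9.28 to 11.4 against 5.38 to 7.03 CPM summed over the list), both without overlap. Their part in the difference was not tested.

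**Figure D4:**
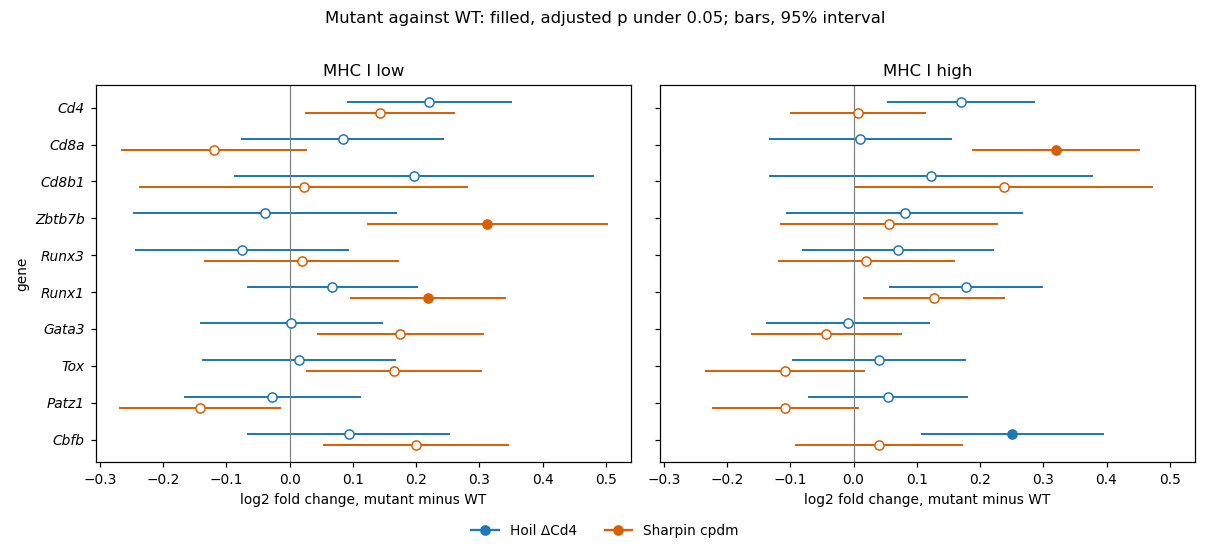
Log2 fold change of each gene between a mutant and WT (horizontal axes) in MHC I low and MHC I high samples; points are limma estimates with their 95% intervals, filled where the adjusted p is under 0.05. The 4 filled points are *Zbtb7b* (0.31) and *Runx1* (0.22) in *Sharpin* cpdm MHC I low, *Cd8a* (0.32) in *Sharpin* cpdm MHC I high and *Cbfb* (0.25) in *Hoil* ΔCd4 MHC I high samples.

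Set against each other, the mutants differed in *Zbtb7b* in MHC I low cells and in *Cd8a* in MHC I high cells, 1 of the 10 genes in each. In MHC I low cells 9.48% of all genes were called, 5.12% higher and 4.36% lower in *Hoil* ΔCd4, and *Zbtb7b* was among the latter (limma log2 fold change −0.35 ± 0.102 SE, adjusted p = 0.0351), with no overlap of 339.9–447 with 450.0–526 CPM. *Zbtb7b* and *Runx1* were the 2 genes of the 10 without overlap there, against 27.8% of all genes. That call was lost without *Hoil* ΔCd4 mouse 1 (adjusted p = 0.246) or 3 (0.191), without *Sharpin* cpdm mouse 1 (0.0804) or 2 (0.100), without a replicate block (0.0575) and with edgeR (0.0651). In MHC I high cells 6.73% were called, 3.71% higher and 3.02% lower, and *Cd8a* was among the latter at 675–857 against 846–999.9 CPM (limma log2 fold change −0.31 ± 0.0704 SE, adjusted p = 0.00736). That call was lost without *Sharpin* cpdm mouse 2 (0.112) or 3 (0.0710) and with only the groups compared in the model (0.0593). Without *Sharpin* cpdm mouse 1, *Cd4* (0.0369) and *Tox* (0.0318) were called there as well, *Cd4* and *Patz1* were called without *Hoil* ΔCd4 mouse 3 (0.0360) and mouse 1 (0.0176), and *Cbfb* was called without WT mouse 2 (0.0275) and with only the groups compared (0.0253), the setting that lost *Cd8a*. *Cbfb* was the 1 gene of the 10 without overlap there, against 22.9% of all genes. Between the mutants, mature single-positive markers were lower in *Hoil* ΔCd4 samples, 5 of 9 in MHC I low and 3 of 9 in MHC I high, and 3 of 10 double-positive markers were higher in MHC I low. Their part in these differences was not tested.

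Whether the step between the fractions differed between a mutant and WT was tested as the difference of the changes. In *Hoil* ΔCd4 mice 0 of the 10 genes were called by limma, edgeR or DESeq2, 0 had an unadjusted p under 0.05 with limma, and 0.398% of all genes were called (0.297% with a higher and 0.102% with a lower change). In *Sharpin* cpdm mice *Cd8a* was called, where 3.13% of all genes were called (2.2% with a higher and 0.93% with a lower change). Its rise exceeded that of WT by 0.44 on the log2 scale (standard error 0.0841, adjusted p = 0.00399, limma). This call was lost with edgeR (adjusted p = 0.138) and DESeq2 (0.0585), without *Sharpin* cpdm mouse 2 (0.0688) and without WT mouse 3 (0.0939). The differences of *Tox* (−0.27, adjusted p = 0.0556), *Zbtb7b* (−0.26, adjusted p = 0.212) and *Gata3* (−0.22, adjusted p = 0.111) were not called. *Tox* was called without *Hoil* ΔCd4 mouse 2 (0.0472), *Sharpin* cpdm mouse 1 (0.0473) or WT mouse 1 (0.0251). With each mouse as a fixed replicate block, *Cd8a* (adjusted p = 2.93e-04), *Zbtb7b* (0.0202) and *Tox* (0.0369) were called, 3 of the 10. That setting called 634 of all 12798 genes, against 400 with the random block. Of 10 double-positive markers, 4 had a higher and 0 a lower change in *Sharpin* cpdm than in WT mice (median log2 difference 0.58). For *Hoil* ΔCd4 mice 1 of the 10 had a higher and 0 a lower change (median 0.51). Of 9 mature single-positive markers 0 were called for either mutant. The part of these markers in the changes was not tested.

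Across the 18 samples, whose main division is that between the fractions, *Cd8a* and *Cd8b1* had a Pearson correlation of log2 CPM of 0.994. After the mean of each group was removed the value was 0.874, and for *Zbtb7b* with *Gata3* it was 0.831, against 0.839 over the 18 samples as they were. For *Runx3* with *Cd8a* it was 0.975 over the samples and −0.11 with group means removed. The latter value rests on the spread between replicates alone, which is narrow beside the difference between the fractions. Samples of a mouse share an animal, and these values are descriptions without a test. The genes most like each member over the 18 samples were *Psd4* (0.916), *Tmcc3* (0.915) and *Tigit* (0.909) for *Cd4*, and *Fmnl3* (0.935), *Csk* (0.930) and *Ppard* (0.929) for *Zbtb7b*. They were *Sorl1* (0.993), *Foxk1* (0.992) and *Bcl3* (0.992) for *Runx3*, *Tha1* and *Tbc1d31* (both 0.988) beside *Cd8b1* for *Cd8a*, and *Padi2* (0.992) and *Thy1* (0.987) beside *Cd8a* for *Cd8b1*.

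Related genes were examined as 4 lists, of which the genes named are those with the smallest p-values in each direction. Of 20 genes of the CD8 lineage and of cytotoxicity, 14 were expressed enough to be tested. Between the fractions 11 of the 14 rose and none fell in WT, 10 rose in *Hoil* ΔCd4 and 12 in *Sharpin* cpdm mice, where 27.5%, 23.5% and 27.2% of all genes rose, with a median log2 fold change of 2.50, 2.56 and 2.71 while the median over all genes tested was close to 0. *Il2rb*, the IL-2 and IL-15 receptor β chain, rose from 23.9 ± 1.35 to 134 ± 7.63 CPM in WT (log2 fold change 2.45, adjusted p = 8.96e-25, limma). *Ctsw*, a protease of cytotoxic cells, rose from 41.2 ± 2.28 to 248 ± 24.8 CPM (2.57, adjusted p = 1.79e-23). The genes not tested for low counts were *Gzmb*, *Gzmk*, *Ccl5*, *Klrk1*, *Cxcr3* and *Ifng*, most of them effector genes of mature CD8 cells.

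Of 16 genes of the CD4 lineage, 15 were tested (not *Il4*), and they did not share a direction. In WT 7 rose and 7 fell, in *Hoil* ΔCd4 6 rose and 7 fell, and in *Sharpin* cpdm mice 6 rose and 8 fell. Over all genes 27.5%, 23.5% and 27.2% rose and 26.8%, 21.7% and 27.4% fell in that order, and the median log2 fold change of the list was −0.08, −0.09 and −0.19. *Cd40lg*, the helper ligand CD40L, fell from 117 ± 3.98 to 46.5 ± 7.13 CPM in WT (log2 fold change −1.37, adjusted p = 8.73e-19, limma) and by 1.45 on the log2 scale in *Sharpin* cpdm mice. *Cd28* fell in *Hoil* ΔCd4 (−1.23) and *Sharpin* cpdm mice (−1.29). The coinhibitory receptor gene *Ctla4* rose from 3.87 ± 0.143 to 17.5 ± 0.748 CPM in WT (2.14, adjusted p = 3.09e-14), and *Tnfsf8* rose from 4.71 ± 0.371 to 16.8 ± 3.47 CPM (1.79, adjusted p = 3.33e-14).

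Of 30 regulators that act upstream of the members or with them, 30 were tested and most fell, 20 in WT (4 rose), 19 in *Hoil* ΔCd4 (3 rose) and 19 in *Sharpin* cpdm mice (3 rose). Of all genes 26.8%, 21.7% and 27.4% fell and 27.5%, 23.5% and 27.2% rose, and the median log2 fold change of the list was −0.21, −0.28 and −0.24. *Myb*, a factor that promotes *Gata3* in CD4 differentiation, fell from 638 ± 20.9 to 204 ± 23.6 CPM in WT (log2 fold change −1.58, adjusted p = 2.60e-22, limma), by 1.79 in *Hoil* ΔCd4 and by 1.31 in *Sharpin* cpdm mice on the log2 scale. *Egr2*, induced by T-cell receptor signals, fell from 193 ± 5.42 to 73.7 ± 10.6 CPM in WT (−1.45, adjusted p = 1.24e-19). *Tox2*, the relative of *Tox*, fell from 32.4 ± 4.49 to 1.53 ± 0.342 CPM in *Sharpin* cpdm mice (−4.35, adjusted p = 2.21e-19). Its change there differed from that in WT by only −0.82 (adjusted p = 0.0449, limma, difference of the changes), so *Tox2* fell in WT mice as well. *Dnmt1*, the maintenance DNA methyltransferase, rose from 265 ± 18.8 to 342 ± 12.1 CPM in WT (0.36, adjusted p = 1.04e-07).

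The cytokine route to *Runx3*, through γc receptors, JAK kinases and STAT factors, was represented by 16 genes, all tested. In WT 7 rose and 5 fell, and in each mutant 7 rose and 6 fell, to be read against the shares of all genes given for the regulators. The median log2 fold change of the list was −0.03 in WT, 0.01 in the *Hoil* ΔCd4 samples and 0.06 in those of *Sharpin* cpdm mice. *Jak3*, the kinase bound to the common γ chain, rose from 181 ± 10.01 to 396 ± 21.7 CPM in WT (log2 fold change 1.14, adjusted p = 2.89e-18, limma). *Stat5b* fell from 815.5 ± 13.1 to 563.5 ± 18.1 CPM (−0.54, adjusted p = 8.35e-13) and *Il7r*, the IL-7 receptor α chain, from 384 ± 14.4 to 286 ± 7.31 CPM (−0.44, adjusted p = 2.43e-10). *Socs1*, a feedback inhibitor of this pathway, fell by 0.62 in *Hoil* ΔCd4 and by 0.96 in *Sharpin* cpdm mice on the log2 scale, and *Il6ra* rose by 2.62 in *Hoil* ΔCd4 mice. Leaving out any mouse cost none of the genes named in these 4 lists its call between the fractions.

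**Figure D5:**
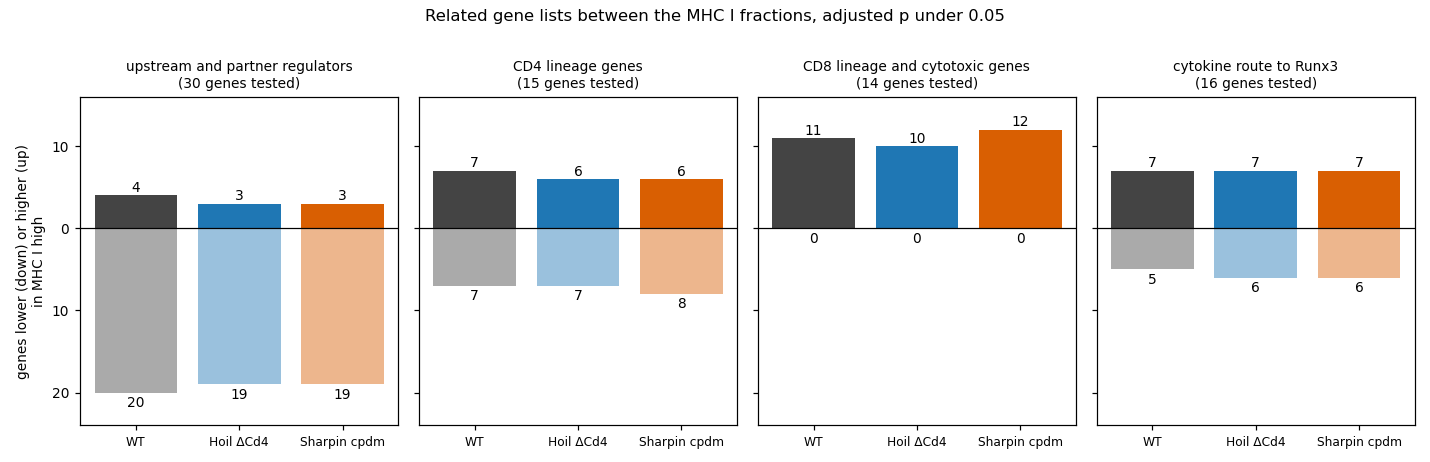
Number of genes of each related list that rose (bars upward) or fell (bars downward, lighter) between the fractions, high against low, at an adjusted p under 0.05, by genotype. The CD8 lineage list has bars upward only (11, 10 and 12 genes), the upstream list mostly downward (20, 19 and 19), and the CD4 lineage and cytokine lists go both ways.

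The lists were then compared between mutants and WT. For MHC I low cells of *Hoil* ΔCd4 mice 2 of 30 regulators, 1 of 15 CD4 lineage genes and 1 of 16 cytokine route genes were called, where 0.985% of all genes were. Of the 14 CD8 lineage genes 0 were called by limma, edgeR or DESeq2, and 2 had an unadjusted p under 0.05 with limma. Beside these calls stand the marker sums of the same samples given above. *Myb* rose from 638 ± 20.9 CPM in WT to 803 ± 20.7 CPM (log2 fold change 0.32, adjusted p = 0.00605, limma), a call lost without WT mouse 1 (0.0687). *Il7r* fell from 384 ± 14.4 to 318 ± 5.72 CPM (−0.27, adjusted p = 0.00807), lost without WT mouse 1 (0.0734) or 3 (0.0652). *Bhlhe40*, a repressor induced on activation, was at 0.0468 ± 0.0406 CPM against 0.751 ± 0.0414 CPM in WT (adjusted p = 5.60e-04), levels of few reads. *Tnfsf8* (0.63, adjusted p = 0.0400) lost its call in 10 of 19 alternatives, among them without any of the 3 WT mice (0.0809, 0.0951 and 0.0766), *Hoil* ΔCd4 mouse 1 (0.183) or 2 (0.0858) and *Sharpin* cpdm mouse 3 (0.0558).

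In *Hoil* ΔCd4 MHC I high cells 3 of 30 regulators, 2 of 15 CD4 lineage genes, 5 of 14 CD8 lineage genes and 6 of 16 cytokine route genes were called, where 6.65% of all genes were. *Gzma*, a granzyme of cytotoxic cells, rose from 4.83 ± 0.491 to 14.6 ± 4.45 CPM (log2 fold change 1.56, adjusted p = 8.86e-04, limma). This call held in every alternative that tested the gene. *Dnmt1* rose by 0.32 on the log2 scale (adjusted p = 6.10e-04), lost without WT mouse 3 (0.0910). The cytokine feedback genes *Socs1* (0.46, adjusted p = 9.45e-04) and *Cish* (0.56, adjusted p = 0.00226) rose. The call of *Socs1* was lost in 3 of 19 alternatives, among them without WT mouse 1 (0.0757) or 3 (0.101), and that of *Cish* without *Hoil* ΔCd4 mouse 3 (0.110). *Klrd1* fell from 3.15 ± 0.717 to 0.812 ± 0.382 CPM (−1.86, adjusted p = 0.00840), lost without *Hoil* ΔCd4 mouse 2 (0.146) or 3 (0.0657) or WT mouse 1 (0.0638). The calls of *Cd40lg* (0.31), *Hdac2* (0.19), *Il2rb* (0.28), *Ctsw* (−0.28), *Il7r* (−0.18), *Stat5a* (−0.20) and *Bhlhe40* (−1.41) were each lost without *Hoil* ΔCd4 mouse 2 (adjusted p from 0.0721 for *Cd40lg* to 0.340 for *Bhlhe40*), without WT mouse 1 (0.0865 for *Stat5a* to 0.428 for *Hdac2*) and without WT mouse 3 (0.112 for *Ctsw* to 0.499 for *Stat5a*). Without *Hoil* ΔCd4 mouse 3 those of *Hdac2* (0.335), *Il2rb* (0.0636), *Stat5a* (0.0989) and *Bhlhe40* (0.0992) were lost, without *Hoil* ΔCd4 mouse 1 that of *Ctsw* (0.0539), without *Sharpin* cpdm mouse 3 that of *Hdac2* (0.0507), and without WT mouse 2 those of *Stat5a* (0.0558) and *Bhlhe40* (0.0837). Counting every alternative, the losses were 4 for *Cd40lg*, 10 for *Hdac2*, 7 for *Il2rb*, 6 for *Ctsw*, 5 for *Il7r* and 9 for *Stat5a* of 19, and 8 of 18 for *Bhlhe40*.

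In *Sharpin* cpdm MHC I low cells 7 of 30 regulators, 4 of 15 CD4 lineage genes, 4 of 14 CD8 lineage genes and 3 of 16 cytokine route genes were called, where 12.2% of all genes were. *Lef1*, a regulator that acts upstream of *Zbtb7b*, rose from 982 ± 62.0 to 1244 ± 42.2 CPM (log2 fold change 0.36, adjusted p = 3.91e-04, limma). *Cd40lg* rose from 117 ± 3.98 to 149 ± 5.04 CPM (0.34, adjusted p = 0.00172), *Il4ra* from 251 ± 13 to 327 ± 31.4 CPM (0.37, adjusted p = 0.00399) and *Il7r* from 384 ± 14.4 to 462 ± 11 CPM (0.27, adjusted p = 5.18e-04). *St8sia1* fell from 192 ± 10.4 to 158 ± 8.38 CPM (−0.29, adjusted p = 5.29e-04), *Ctsw* from 41.2 ± 2.28 to 31.6 ± 1.19 CPM (−0.35, adjusted p = 0.00291) and *Cish* from 14.9 ± 0.209 to 10.1 ± 1.25 CPM (−0.58, adjusted p = 9.50e-04). These 7 calls held in every alternative. *Zfpm1*, whose product FOG1 binds GATA factors, rose (0.49, adjusted p = 0.00981), lost without WT mouse 1 (0.0718) or 3 (0.0638) and with only the groups compared (0.0889). *Myb* fell (−0.20, adjusted p = 0.0218), lost without WT mouse 1 (0.0518) or 3 (0.0795) or *Sharpin* cpdm mouse 2 (0.0796) or 3 (0.0704), and with *Xist* as a covariate (0.0959). *Gzma* fell from 1.59 ± 0.255 to 0.630 ± 0.307 CPM (−1.19, adjusted p = 0.00652), lost in 3 of 18 alternatives, among them with *Xist* as a covariate (0.0800) and without WT mouse 3 (0.0579). *Klrd1* (0.304 ± 0.120 against 0.0213 ± 0.0369 CPM) and *Bhlhe40* (0.253 ± 0.144 against 0.751 ± 0.0414 CPM) were called at levels of few reads. The call of *Klrd1* was lost with only the groups compared (0.0629). That of *Bhlhe40* was lost in 6 of 18 alternatives, among them without *Sharpin* cpdm mouse 2 (0.155) or WT mouse 1 (0.0531) or 3 (0.0577).

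In *Sharpin* cpdm MHC I high cells 2 of 30 regulators, 3 of 15 CD4 lineage genes and 3 of 16 cytokine route genes were called, where 8.62% of all genes were. Of the 14 CD8 lineage genes 0 were called by limma, edgeR or DESeq2, and 2 had an unadjusted p under 0.05 with limma, although *Cd8a* was called in the same samples. *Dnmt1* (log2 fold change 0.29, adjusted p = 3.77e-04, limma) and *Il7r* (0.26, adjusted p = 3.56e-04) rose, and *Cish* (−0.61, adjusted p = 2.19e-04), *St8sia1* (−0.25, adjusted p = 8.96e-04) and *Stat5a* (−0.21, adjusted p = 0.00617) fell. Without WT mouse 3 all 5 calls were lost (adjusted p = 0.0850, 0.0544, 0.0511, 0.197 and 0.392 in that order), and that of *Stat5a* was lost in 3 of 19 alternatives. *Egr3*, induced by T-cell receptor signals, rose from 29.6 ± 1.67 to 38.6 ± 1.43 CPM (0.42, adjusted p = 0.00203), lost without WT mouse 1 (0.0624) or 3 (0.113). *Cd40lg* (0.26, adjusted p = 0.0104) rose, and its call was lost in 8 of 19 alternatives, among them without WT mouse 1 (0.441) or 3 (0.281) and without *Sharpin* cpdm mouse 1 (0.0760).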

How the data were processed

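The authors aligned single-end reads of 75 bases to mm10 by subread, and featureCounts assigned them to its inbuilt RefSeq genes (versions, strand and multi-mapping settings not given in the sources used here). The deposited values are raw counts per gene, in 1 file per sample. Gene symbols were matched to 25275 of 27179 Entrez Gene IDs, and the 1904 unmatched held 0.655% of counts. Without a stated strand, reads in exons shared with *Gm15417* (*Zbtb7b*), *Gm26626* (*Runx1*), *9230102O04Rik* and *Gm13256* (*Gata3*), *Gm11802* (*Tox*) or *Gm11944* and *Gm12592* (*Patz1*) are uncertain.

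A gene was kept where 3 or more samples reached 0.5 CPM, and genes of chromosome Y, *Xist*, predicted and unnamed genes were removed, as in the study's methods, which left 12798. Log2 CPM (TMM, prior count 1) were fitted with limma 3.58.1 (R 4.3.3, edgeR 4.0.16, statmod 1.5.0) as 6 groups over the 18 samples, with sample quality weights, the mouse as a random block (correlation 0.224), and a robust variance trend. The p-values of all tested genes were adjusted by Benjamini–Hochberg, and genes with an adjusted p under 0.05 were called. Levels are CPM after TMM scaling. The scripts were tested on simulated data. The results were recomputed by DESeq2 1.42.0, the quasi-likelihood test of edgeR, other filters, scalings, prior counts and blocks, *Xist* as a covariate, and leaving out each mouse. Leaving out 1 library of *Hoil* ΔCd4 mouse 2 was added after seeing the data.

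Fractions of a mouse were paired because they came from the same animal, and the correlation of their deviations from the group means was 0.0702 to 0.256 in the 9 mice. All pairs of replicates differed beyond sampling noise (chi-square per degree of freedom 5.00 to 15.7), and between 10577966 and 16266128 reads were counted per sample. The 10 genes and the related lists were chosen with earlier results of these data known. Genes named are the 10, *Rbck1* and *Sharpin*, from each related list the called genes with the 2 smallest p-values in each direction in a comparison, and the 3 genes most correlated with *Cd4*, *Cd8a*, *Cd8b1*, *Zbtb7b* and *Runx3*. Some genes that this rule names are not reported here. A table that repeats the counts of the 18 files was not used.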

Additional observations from a re-analysis of the deposited data

Results flagged for a closer look

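The rise of *Cd8a* between the fractions was larger in *Sharpin* cpdm than in WT mice, by 0.44 on the log2 scale (adjusted p = 0.00399, limma, test of the difference of the changes), and the smallest rise among the 3 *Sharpin* cpdm mice (4.23-fold) exceeded the largest among the 3 WT mice (3.80-fold). That call was lost in 4 of 20 alternatives, among them with edgeR (adjusted p = 0.138). The rises per mouse come from the same samples as the test and add no separate support.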

How the results depend on the processing

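No called difference of the 10 genes changed sign in any of the alternatives. Estimates that were not called lay on both sides of 0 for some genes, as for *Zbtb7b* (−0.14 to 0.06) in *Hoil* ΔCd4 MHC I low and *Cd8b1* (−0.06 to 0.22) in *Hoil* ΔCd4 MHC I high against WT. Over the 110 combinations of gene and comparison, 2067 of 2140 recomputed values kept their side of the threshold, 48 lost a call and 25 gained one; of 1607 for the other named genes, 1494 kept their side and 113 lost a call. The cause of these changes was not tested, except that fewer genes were tested with at least 10 counts in every sample.

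Between the fractions, 9 of the 10 genes in WT, 7 to 9 in *Hoil* ΔCd4 and 9 to 10 in *Sharpin* cpdm mice were called when 1 mouse was left out. Of all 12798 genes these fits called 4953 to 6957, 4462 to 5871 and 5453 to 7079 in that order. Without a replicate block the counts were 9, 8 and 10, and with each mouse as a fixed replicate block 9, 9 and 10. Of all 12798 genes, 6266, 5028 and 6296 were called without a block and 6527, 6115 and 7237 with the fixed block. Such a fixed block gave 3 genes for the *Sharpin* cpdm change (634 of all genes) and 0 for the *Hoil* ΔCd4 change (77 of all genes), and it cannot be fitted between genotypes. Of the 10 genes, leaving out a mouse gave 0 to 1 calls for *Hoil* ΔCd4 against WT in MHC I low and 0 to 3 in MHC I high cells, 1 to 3 and 0 to 2 for *Sharpin* cpdm against WT, 0 to 1 and 0 to 3 between the mutants, and 0 to 2 for the *Sharpin* cpdm change. The calls over all 12798 genes moved as well. In the same order they were 62 to 222 and 134 to 1219, 818 to 1555 and 238 to 1142, 707 to 1197 and 324 to 958, and 104 to 496.

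With edgeR the counts became 0 for *Hoil* ΔCd4 MHC I high, 1 for *Sharpin* cpdm MHC I low, 0 between the mutants in MHC I low and 0 for the *Sharpin* cpdm change. With DESeq2 they were 1 for *Hoil* ΔCd4 MHC I low, 1 for *Sharpin* cpdm MHC I low and 0 for the change. Of all 12798 genes edgeR called 404, 1138, 1505 and 30, and DESeq2 191, 1264 and 134, in the order given for each. The count stayed at 1 with *Cd4* in place of *Cbfb* for *Hoil* ΔCd4 MHC I high with DESeq2, and with *Cbfb* in place of *Cd8a* between the mutants in MHC I high with only the groups compared. For *Hoil* ΔCd4 MHC I high the count was 2 with library size only, and 0 with no filter, no sample weights, only the groups compared, or the library of mouse 2 left out. Over all genes these settings called 875, 453 (of 17669), 314, 758 and 178 there, in that order. For *Sharpin* cpdm MHC I low it was 1 with no sample weights or *Xist* as a covariate, for *Sharpin* cpdm MHC I high 2 with only the groups compared, between the mutants in MHC I low 0 without a replicate block, and for the change 2 with at least 10 counts in every sample. Over all genes 1220, 1371, 1088, 1177 and 501 (of 10900) were called, in that order.

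The number of all genes called moved between these settings too, as given above beside the 10 genes. For the regulators, leaving out a mouse gave 1 to 3 and 0 to 5 calls in *Hoil* ΔCd4 MHC I low and high, and 1 to 8 and 0 to 3 in *Sharpin* cpdm cells. The count was 1 in *Hoil* ΔCd4 MHC I low with at least 10 counts, 1 in *Hoil* ΔCd4 MHC I high with no filter, no sample weights or the library of mouse 2 left out, 4 in *Sharpin* cpdm MHC I low with edgeR and 4 in MHC I high with only the groups compared. For the CD4 lineage genes the ranges were 0 to 2 and 1 to 3 in *Hoil* ΔCd4 and 0 to 3 in *Sharpin* cpdm MHC I high cells. In *Hoil* ΔCd4 MHC I low the count was 0 with edgeR, no filter or only the groups compared and 2 with DESeq2. It was 1 in *Hoil* ΔCd4 MHC I high with edgeR or the library left out, and 1 in *Sharpin* cpdm MHC I high with edgeR or no sample weights. For the CD8 lineage genes the ranges were 1 to 6 in *Hoil* ΔCd4 MHC I high and 2 to 4 in *Sharpin* cpdm MHC I low cells. In the former the count was 2 with no filter, at least 10 counts or the library left out and 3 with no sample weights, and in the latter 1 with at least 10 counts and 2 with *Xist*. It was 1 in *Sharpin* cpdm MHC I high with *Xist*, and 4 between the fractions of each genotype with at least 10 counts, a setting that tested fewer genes of this list. For the cytokine route the ranges were 0 to 5 and 1 to 8 in *Hoil* ΔCd4 and 0 to 4 in *Sharpin* cpdm MHC I high cells. The count was 3 in *Hoil* ΔCd4 MHC I low with *Xist*, and also 3 in *Hoil* ΔCd4 MHC I high with edgeR or the library left out.

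Each genotype had 3 mice, the WT mice were all of female pattern, and differences near 0.2 on the log2 scale between genotypes lay close to the threshold.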
